A study of Homo sapiens with 6 samples.

Results

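The comparison was between NCI-H929 cells that received an siRNA against RRM2 (siRRM2) and NCI-H929 cells that received a non-targeting siRNA (scramble). Its members were the 4 of 6 arrays whose titles name one of these groups, 2 of siRRM2 and 2 of scramble. Each gene tested was read from its brightest probe set with a single gene symbol. NCI-H929 is an established human multiple myeloma line, so all results come from 1 line of malignant plasma cells. Every culture, scramble included, was electroporated with siRNA, and total RNA was taken 24 hours later and hybridised to an Affymetrix expression array. The remaining 2 arrays are of cells given an siRNA against RRM1 (siRRM1). The sources used here give neither the siRNA sequences nor their number per target. They do not say if duplicate arrays hold separately grown and treated cells, so p-values cover only the spread between these arrays, which may be technical.

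Ribonucleotide reductase makes deoxyribonucleotides, the building blocks of DNA, from ribonucleotides. RRM1 is its large catalytic and regulatory subunit, and RRM2 is the small subunit that carries the radical needed for catalysis and is made mainly in S phase. Loss of the enzyme slows DNA synthesis, and slowed forks activate checkpoint kinases and can activate p53, a transcription factor that drives arrest, repair and death genes.

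The target was lower on both siRRM2 arrays. RRM2 read 12.78 on scramble array 1, 12.78 on scramble array 2, 10.54 on siRRM2 array 1 and 11.44 on siRRM2 array 2, in deposited log2 signal of its brighter probe set. The dimmer probe set read 12.51, 12.59, 9.59 and 10.12 in the same order. The groups did not overlap on either probe set, as was the case for 54.7% of all genes tested, and siRRM2 array 1 held the lower level on both. The log2 difference between group means was -1.79 (SE 0.25, n = 2 arrays a group, limma adjusted p = 0.0214) on the first probe set and -2.70 on the second. Leaving out scramble array 1 or scramble array 2 raised the adjusted p to 0.0748 and 0.0557. RRM1, the partner subunit, read 11.06 and 11.11 in scramble and 11.12 and 11.38 in siRRM2, a log2 difference of 0.16 with a 95% interval from -0.45 to 0.78 (limma adjusted p = 0.780).

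The arrays matched their label as plasma cells. The 9 plasma cell and myeloma markers all passed the filter on dim signal, and their summed linear signal was 26190 and 24650 in scramble against 26810 and 24250 in siRRM2. Array medians lay between 6.11 and 6.16 log2 units. In RNA from whole cultures, fewer cells of a kind and less RNA per cell cannot be told apart.

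Of 7936 genes tested, 159 were higher and 41 were lower in siRRM2 than in scramble at a limma adjusted p under 0.05, which is 2.00% and 0.517% of the genes tested and 2.52% in all. Such genes are said below to have risen or fallen. The groups did not overlap in any of the 200, as in 54.7% of all genes tested, so a lack of overlap adds nothing to a call. The median log2 difference was 0.71 over the risen genes, -0.63 over the fallen genes and -0.0033 over all genes tested. At least a 2-fold difference was reached by 28 risen and 2 fallen genes, 0.378% of those tested. Across all genes tested the 2 siRRM2 arrays correlated at 0.996, beside 0.9943 for the scramble pair and 0.9934 for the siRRM1 pair. Within the called genes, 37 of the 41 fallen were lower on siRRM2 array 1, and 105 of the 159 risen were higher on siRRM2 array 2. The matching shares over all genes were not taken. The 200 genes became 36 without scramble array 1, 51 without scramble array 2, 35 without siRRM2 array 1 and 13 without siRRM2 array 2. ACTA2, ARHGDIB, CCL1, CDKN1A, FAS, IL10, LAPTM5, PECAM1 and TNFSF9 were the 9 genes that passed whichever of the 6 arrays was left out. Of these, PECAM1, an adhesion molecule of platelets, leukocytes and endothelium, was named after its values were seen. It read 8.79 and 8.77 in scramble and 9.91 and 9.83 in siRRM2.

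**Figure D1:**
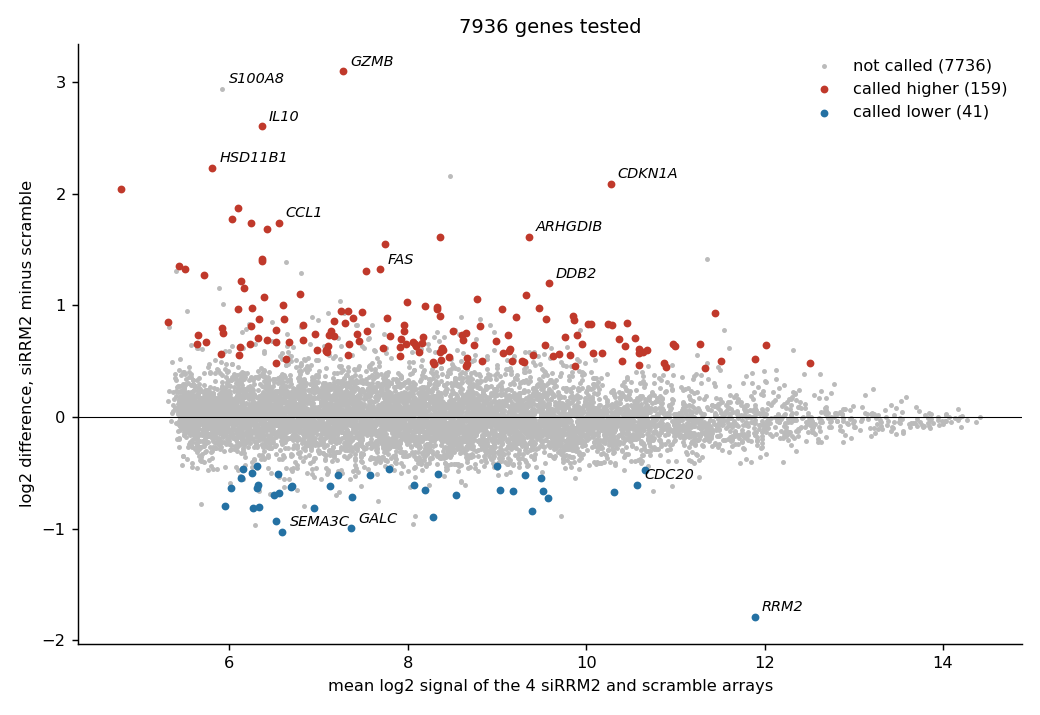
Log2 difference of siRRM2 minus scramble (vertical axis) against mean log2 signal of the 4 arrays (horizontal axis), with 1 point for each of 7936 genes. The 159 risen (called higher) and 41 fallen (called lower) genes are coloured, and the risen genes reach farther from 0 than the fallen genes, of which RRM2 at -1.79 lies lowest.

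The largest rises were in GZMB, IL10, HSD11B1, CDKN1A, IL17A, LAPTM5, TNFSF9, CCL1, FCGR2B and GNLY. GZMB, the granule protease granzyme B, read 5.56 and 5.89 in scramble and 8.15 and 9.49 in siRRM2. IL10, an anti-inflammatory cytokine, read 4.71 and 5.41 in scramble and 7.52 and 7.81 in siRRM2. CDKN1A, which encodes the cyclin-dependent kinase inhibitor p21, read 9.16 and 9.30 in scramble and 11.33 and 11.30 in siRRM2. The largest rises were chosen with both siRRM2 arrays above both scramble arrays, so that order is no result. Between the siRRM2 arrays, array 2 read well above array 1 for GZMB, and the pair was level for CDKN1A. The log2 differences were 3.10 (SE 0.50, limma adjusted p = 0.0275) for GZMB, 2.60 (SE 0.22, limma adjusted p = 0.00408) for IL10 and 2.09 (SE 0.15, limma adjusted p = 0.00306) for CDKN1A. GZMB failed the threshold when scramble array 1, scramble array 2 or siRRM2 array 2 was left out, with adjusted p up to 0.109.

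HSD11B1, which regenerates active glucocorticoid from cortisone, read 4.34 and 5.04 in scramble and 6.49 and 7.35 in siRRM2, a log2 difference of 2.23 (limma adjusted p = 0.0292, up to 0.124 when an array was left out). TNFSF9, the ligand of the costimulatory receptor 4-1BB, read 5.10 and 5.19 in scramble and 6.80 and 7.04 in siRRM2. CCL1, a chemokine, read 5.63 and 5.74 in scramble and 7.42 on both siRRM2 arrays. Several of these transcripts were dim at the start: 9 of the 28 genes that rose at least 2-fold had a scramble mean under the filter signal of 5.44. Such a gene was tested only because its signal was high on knockdown arrays, so the filter favoured its rise, and its scramble level is poorly measured. Among the 10 largest rises IL10, HSD11B1, IL17A, LAPTM5, TNFSF9 and FCGR2B were of this kind. IL17A, a T cell cytokine, was among the dim ones at 3.57 and 3.97 in scramble and 5.45 and 6.16 in siRRM2, and its other probe set gave a log2 difference of -0.18. GNLY, the granule protein granulysin, rose by 1.68 with 1.69 on its other probe set, and lost its call without siRRM2 array 2 (limma adjusted p = 0.0517).

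**Figure D2:**
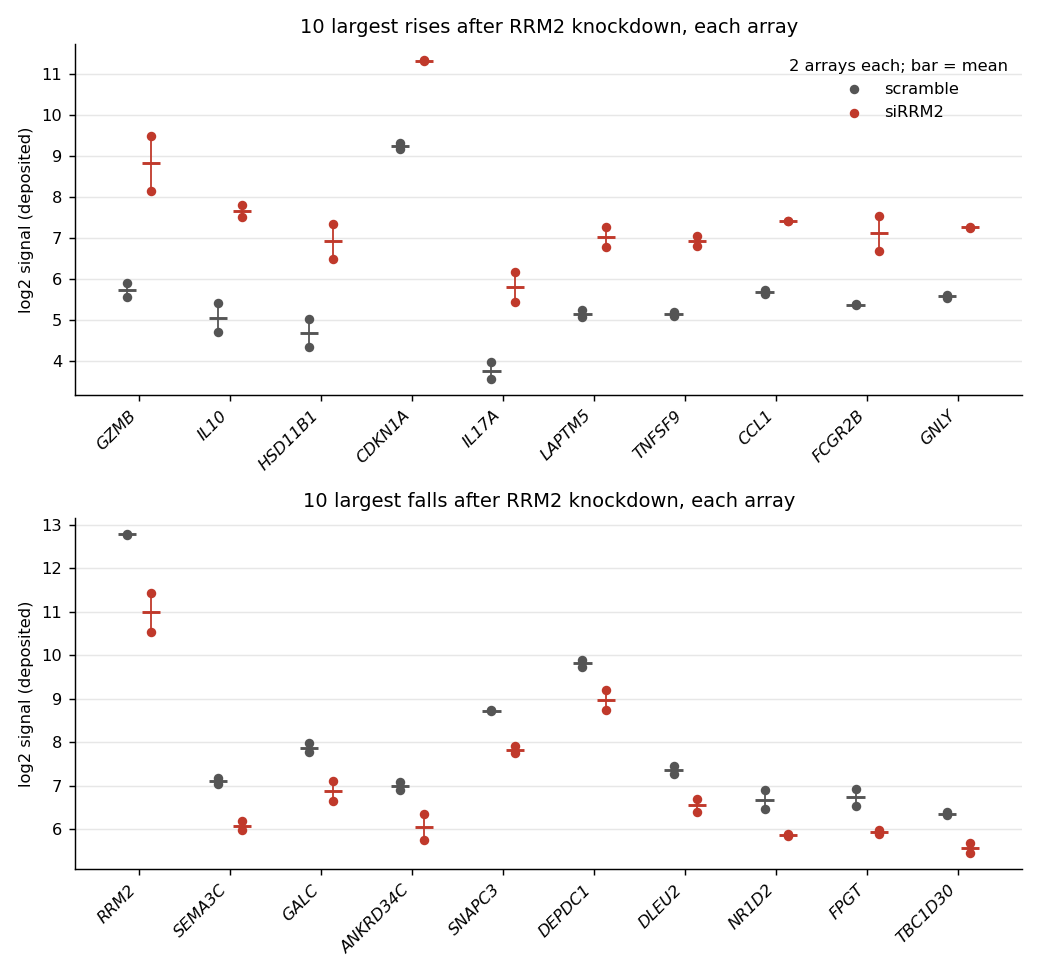
Deposited log2 signal on each scramble and siRRM2 array for the genes with the largest rises and falls. Genes were drawn only if the points of the groups did not overlap. The spread between the siRRM2 arrays is wide for GZMB (8.15 and 9.49) and narrow for CDKN1A (11.33 and 11.30).

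Genes that p53 activates directly made up the role list with the largest share of risen members. The lists were chosen with earlier results of these data known, so that rank is no result. In the list of p53 targets for arrest, repair and metabolism, 18 of the 21 genes with a probe set passed the filter, 10 of these rose and none fell, against 2.00% rising among all genes tested. The median log2 difference of the 18 was 0.54. GDF15 was the 1 riser whose scramble mean lay under the filter signal, so it was tested only through the knockdown arrays. The 10 were CDKN1A, ACTA2, SESN1, GDF15, DDB2, PLK2, XPC, TIGAR, GADD45A and GPX1, and 4, 4, 5 and 2 genes of the list rose when scramble array 1, scramble array 2, siRRM2 array 1 or siRRM2 array 2 was left out.

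ACTA2, smooth muscle actin and a known p53 target, read 6.88 and 6.86 in scramble and 8.07 and 8.29 in siRRM2 (log2 difference 1.31, SE 0.11, limma adjusted p = 0.00408). SESN1, a sestrin that restrains mTORC1, read 6.88 and 6.86 in scramble and 7.71 and 7.72 in siRRM2. Both genes separated the groups by several times the gap between arrays of a group. The next values were picked after they were seen. GDF15, a secreted stress cytokine, read 4.86 and 4.67 in scramble and 5.90 and 6.31 in siRRM2. DDB2 and XPC, which recognise damage for nucleotide excision repair, rose by 1.20 and 0.53. TIGAR, a regulator of glycolysis, rose by 0.56, and GADD45A, an arrest and repair gene, rose by 0.57.

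Among p53 and its feedback regulators 2 of 8 genes tested rose, against 2.00% of all genes, and none fell (median 0.20). PHLDA3, an inhibitor of Akt, read 7.02 and 6.87 in scramble and 7.87 and 7.80 in siRRM2, and ZMAT3, an RNA-binding p53 target, rose by 0.72. MDM2, the ubiquitin ligase that degrades p53, read 8.33 and 8.41 in scramble and 9.40 and 9.09 in siRRM2. The groups of MDM2 did not overlap, but its log2 difference of 0.88 had a limma adjusted p of 0.0750. Without siRRM2 array 1 or siRRM2 array 2, no gene of this list passed.

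Of the p53 death targets 4 of 11 tested rose, against 2.00% of all genes, and none fell (median 0.49). FAS, a death receptor, read 7.07 and 6.99 in scramble and 8.32 and 8.38 in siRRM2, a log2 difference of 1.32 (SE 0.11, limma adjusted p = 0.00408), and its 3 other probe sets gave 1.08, 1.53 and 1.64. All 4 probe sets therefore read the same direction. TNFRSF10B, the TRAIL receptor DR5, rose by 0.83, and PMAIP1, the BH3-only protein NOXA, by 0.74. PIDD1, a death-domain protein, rose by 0.64 and was named after its value was seen. BAX, the pore-forming effector, gave a log2 difference of 0.39 (SE 0.11) and did not pass (limma adjusted p = 0.118). With single arrays left out, 1 or 2 genes of the list rose.

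In the list of BCL2 family members and caspases 1 of 19 genes rose, against 2.00% of all genes, and none fell. This was BCL2, the anti-apoptotic founder of the family, at 6.52 and 6.30 in scramble and 7.30 and 7.16 in siRRM2 (log2 difference 0.82, limma adjusted p = 0.0197). Its other probe sets gave 0.29, -0.07 and -0.12, so the rise rests on 1 of its 4 probe sets. BCL2 passed without scramble array 1 and failed without any other of the 4 arrays.

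The RefSeq promoter table (assembly GRCh38.p14) was searched for a p53 half-site in the 250 bases before each start, on both strands. It was found in 3 of the 13 risen p53 targets in that table, PLK2, GPX1 and ACTA2, and in 5 of all 33 list promoters. The share was 5.5% over all 27305 promoters and 4.06% over promoters of tested genes. The stretches below show these matches in capitals, because they are the risen targets where the window holds one. They are at chr5:58460194-58460233 on the minus strand, chr3:49358506-49358545 on the minus strand and chr10:88991532-88991571 on the minus strand.
PLK2: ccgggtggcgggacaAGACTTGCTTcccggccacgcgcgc
GPX1: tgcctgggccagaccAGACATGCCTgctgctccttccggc
ACTA2: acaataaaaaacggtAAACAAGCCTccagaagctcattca
PLK2, a polo-like kinase, read 6.00 and 5.67 in scramble and 6.61 and 6.68 in siRRM2. GPX1, a glutathione peroxidase, read 11.56 and 11.72 in scramble and 12.08 and 12.23 in siRRM2. Neither pair of groups overlapped, as in every called gene.

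Interferon-stimulated genes rose in part. Of 47 with a probe set 34 passed the filter, 7 rose, none fell and 29 lay above 0, against 49.3% of all genes above 0. The median log2 difference was 0.37. Against 2.00% of all genes risen, the 7 were IRF7, IFI27, ISG15, OAS1, TAP1, MX1 and IFITM1, of which IFI27 had a scramble mean under the filter signal. The count of risen genes was 0 without scramble array 1, 2 without scramble array 2, 1 without siRRM2 array 1 and 0 without siRRM2 array 2.

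IRF7, the transcription factor that amplifies type I interferon, read 6.71 and 6.78 in scramble and 7.50 and 7.46 in siRRM2 (log2 difference 0.73, SE 0.09, limma adjusted p = 0.0145). IFI27, a mitochondrial interferon-induced protein, read 5.46 and 5.35 in scramble and 6.09 and 6.07 in siRRM2. ISG15, a ubiquitin-like modifier, read 8.20 and 8.34 in scramble and 8.86 and 9.06 in siRRM2. In each of these genes the groups did not overlap, as in every called gene. Named after their values were seen, MX1, an antiviral GTPase, rose by 0.60, OAS1, a sensor of double-stranded RNA, by 0.67, and IFITM1, a membrane restriction factor, by 1.15. TAP1, the peptide transporter of antigen presentation, rose by 0.47. IRF9, the DNA-binding subunit of the interferon-activated factor ISGF3, read 7.72 and 8.14 in scramble and 8.56 and 8.75 in siRRM2 and just missed the threshold (limma adjusted p = 0.0502).

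ISGF3 and interferon regulatory factors bind the interferon-stimulated response element, searched here as GAAA, any 2 bases and GAAA again, on both strands, overlapping matches included. The promoter table held 25 of the tested interferon genes, and 13 of them had a match, compared with 2.40% of the promoters of tested genes and 3.07% of all promoters. Of the 6 risen genes in the table, ISG15, IFI27, IFITM1 and TAP1 had a match and MX1 and OAS1 had none in this window. The 4 stretches are shown with matches in capitals because they place the motif beside genes that rose. They are chr1:1013369-1013414 on the plus strand, chr14:94110613-94110665 on the plus strand, chr11:313985-314024 on the plus strand and chr6:32853808-32853853 on the minus strand.
ISG15: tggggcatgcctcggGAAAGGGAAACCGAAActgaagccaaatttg
IFI27: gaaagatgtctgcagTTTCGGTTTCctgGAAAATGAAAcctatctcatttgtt
IFITM1: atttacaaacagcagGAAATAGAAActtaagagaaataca
TAP1: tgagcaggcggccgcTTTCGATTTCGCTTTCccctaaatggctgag
In ISG15 and TAP1 the capitals span overlapping matches, and in TAP1 the motif is on the opposite strand. A match describes the letters and is not evidence of binding.

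NF-kappaB, the transcription factor family of inflammatory signalling, had 3 risen genes of 16 tested, against 2.00% of all genes, and none fallen (median 0.19). TNFAIP3, the deubiquitinase A20 that shuts the pathway off, read 6.79 and 6.70 in scramble and 7.49 and 7.73 in siRRM2. RELB, a subunit, read 6.00 and 5.81 in scramble and 6.62 and 6.49 in siRRM2. CCL4, a chemokine target, read 7.20 and 7.91 in scramble and 8.96 and 9.37 in siRRM2. Both siRRM2 arrays were the higher in all 3 genes, as in every risen gene. The log2 differences were 0.86, 0.65 and 1.61 (limma adjusted p 0.0250, 0.0340 and 0.0292). Without scramble array 2 the list kept 1 risen gene, and without any other of the 4 arrays it kept 0. The TNFAIP3 promoter, chr6:137867177-137867228 on the plus strand, is shown because it was the only risen one in the table, and its capitals mark a pair of NF-kappaB sites; 9.57% of all promoters held such a site.
TNFAIP3: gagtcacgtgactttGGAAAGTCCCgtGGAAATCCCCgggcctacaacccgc

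Of the cytokines and chemokines 19 of 43 with a probe set passed the filter, and 5 rose and none fell: IL10, CCL1, IL17A, CCL4 and IL32. The median of the 19 was 0.07, so most of its members lay near 0. IL10 and IL17A had scramble means under the filter signal and were tested only through the knockdown arrays, so the count of 5, beside 2.00% of all genes, is no support for a rise of the list. IL32, a proinflammatory cytokine, read 8.94 and 9.27 in scramble and 10.16 and 9.81 in siRRM2 and was named after its value was seen. With arrays left out 2 to 4 members of the list rose. In the TNF superfamily 1 of 15 tested genes rose, TNFSF9, and it did so whichever of the 4 arrays was left out. Its log2 difference was 1.78 (SE 0.11, limma adjusted p = 0.00275), and it too had a scramble mean under the filter signal. Beside the 1 of 15 stands the 2.00% of all genes that rose.

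Genes of leukocyte membranes and signalling had 7 risen members of 24 tested, against 2.00% of all genes, and none fallen (median 0.35). For 3 of the 7, LAPTM5, FCGR2B and PTPRC, the scramble mean lay under the filter signal, so they were tested only through the knockdown arrays and the count is no support for a rise of the list. LAPTM5, found in lysosomal membranes of haematopoietic cells, read 5.07 and 5.24 in scramble and 6.78 and 7.27 in siRRM2. ARHGDIB, a signalling regulator abundant in blood cells, read 8.65 and 8.45 in scramble and 10.22 and 10.11 in siRRM2. PTPRC, the phosphatase CD45, read 5.03 and 4.65 in scramble and 5.89 and 6.44 in siRRM2. The log2 differences were 1.87, 1.61 and 1.33, with no overlap between groups, as in every called gene. FCGR2B, an inhibitory Fc receptor, rose by 1.74 and lost its call without scramble array 1, scramble array 2 or siRRM2 array 2. FCGR2C, which shares much of its sequence with FCGR2B so that probes may not separate them, rose by 0.75. The kinase BTK and the phosphatase PTPN22 rose by 0.62 and 0.79 and were named, as was FCGR2C, after their values were seen. The list kept 2 to 5 risen members when an array was left out.

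Of the cytotoxic granule genes 15 had a probe set and 8 passed the filter. Of these 8, 2 rose, GZMB and GNLY, against 2.00% of all genes, and the median was 0.58. The scramble means of GZMB and GNLY, 5.73 and 5.58, lay just above the filter signal of 5.44. NKG7, a granule membrane protein of NK and T cells, read 4.34 and 5.15 in scramble and 5.86 and 6.24 in siRRM2 and did not pass (log2 difference 1.30, limma adjusted p = 0.0563). Its scramble mean of 4.75 lay under the filter signal, so it was tested only through the knockdown arrays. The count and median are therefore no support for a rise of the list. PRF1, the pore protein perforin, read 6.09 and 6.01 in scramble and 6.69 and 7.11 in siRRM2 and did not pass (limma adjusted p = 0.0632). Without siRRM2 array 2 no gene of the list passed.

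Markers of other blood cells were read beside these genes. The summed linear signal of 6 T cell markers was 1281 and 1243 in scramble and 2035 and 1763 in siRRM2, of which TRBC1, a T cell receptor constant region, was the 1 risen gene. The 5 NK cell markers summed to 409.2 and 411.9 in scramble and 404.3 and 443.3 in siRRM2, with no gene risen. That sum was dominated by NCAM1 (8.11 and 8.03 in scramble, 7.85 and 7.99 in siRRM2), and NKG7 is a member of this list too; it passed without scramble array 2. The T cell sum was dominated by TRBC1, already bright in scramble (10.15 and 10.08 in scramble, 10.86 and 10.64 in siRRM2). CD3D, CD3G, CD2 and CD8A differed by 0.04, 0.07, 0.02 and 0.12, all under the filter signal, and CD3E by 0.33. The T cell sum was thus higher on both siRRM2 arrays mainly through TRBC1, while the NK cell sum overlapped between groups. The 7 myeloid markers summed to 211.1 and 221.8 in scramble and 347.2 and 711.4 in siRRM2. S100A8, a calprotectin subunit of neutrophils and monocytes, moved the most among them, at 4.45 and 4.44 in scramble and 6.53 and 8.23 in siRRM2, without passing (log2 difference 2.94, limma adjusted p = 0.0526). Its scramble mean lay under the filter signal, so S100A8 was tested only through the knockdown arrays. S100A9 and CSF1R, the other myeloid markers tested, differed by 1.39 and 0.59 without passing, and the remaining 4 failed the filter. CD14, LYZ and FCN1 were under the filter signal on all 4 arrays, as were the T cell markers CD3D and CD2. The 3 mature B cell markers summed to 102.4 and 112.4 in scramble and 101.8 and 112.2 in siRRM2. The part of other cells in these rises was not tested beyond these levels.

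**Figure D3:**
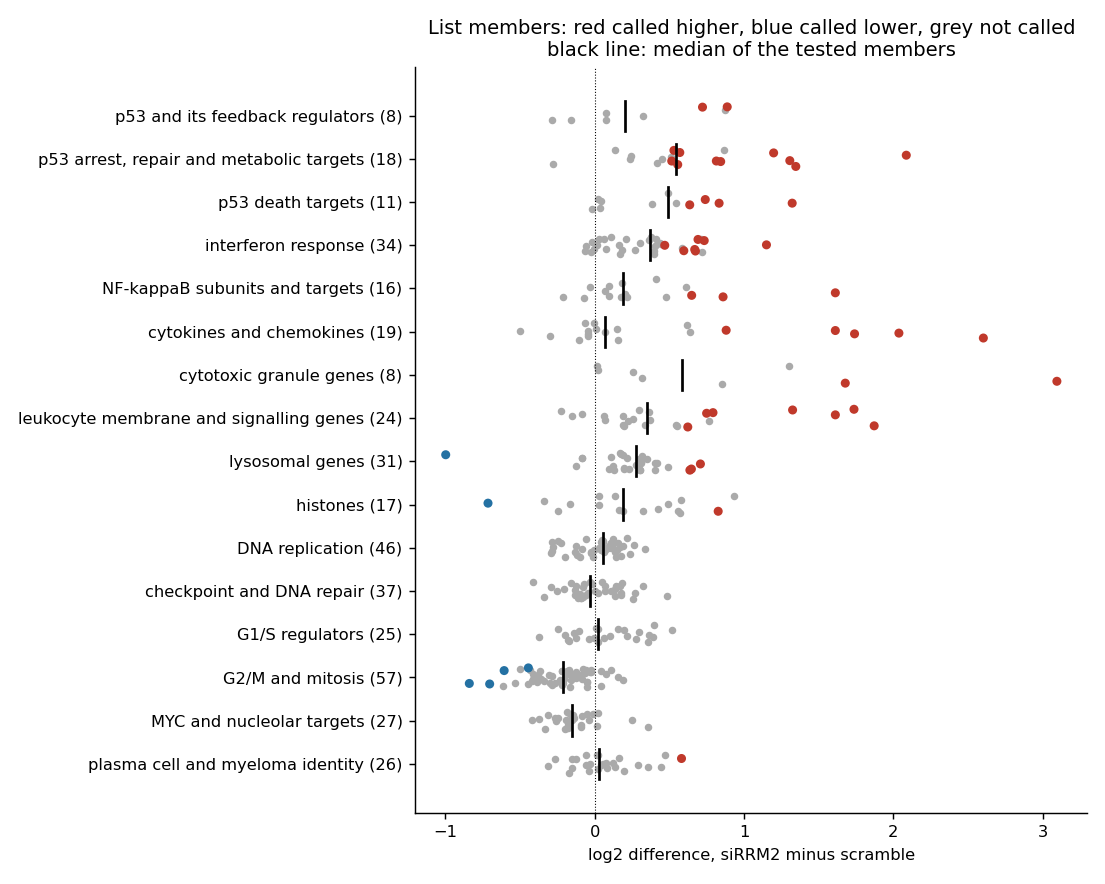
Log2 differences of siRRM2 minus scramble for the tested members of each gene list, with 1 point a gene and the list median marked. The p53 arrest list has its median at 0.54, the interferon list at 0.37 and the mitosis list at -0.21, while the replication list lies close to 0 at 0.06.

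The fallen genes were smaller changes than the risen ones. After RRM2, the largest falls were in SEMA3C, GALC, ANKRD34C, SNAPC3, DEPDC1, DLEU2, NR1D2, FPGT and TBC1D30. SEMA3C, a secreted semaphorin, read 7.04 and 7.18 in scramble and 5.97 and 6.19 in siRRM2 (log2 difference -1.03, SE 0.19, limma adjusted p = 0.0413). GALC, the lysosomal galactosylceramidase, read 7.76 and 7.97 in scramble and 6.63 and 7.10 in siRRM2, and its other probe set gave -0.67. SNAPC3 is a subunit of a complex needed for transcription of small nuclear RNA genes. It read 8.73 and 8.72 in scramble and 7.91 and 7.75 in siRRM2 (log2 difference -0.89, SE 0.10, limma adjusted p = 0.0117). The largest falls, too, were chosen with no overlap between groups. SNAPC3 lost its call without siRRM2 array 2 alone (limma adjusted p = 0.0776), and its other probe sets gave -0.81 and -0.30. DLEU2, the host transcript of miR-15a and miR-16-1, read 7.45 and 7.27 in scramble and 6.39 and 6.70 in siRRM2. NR1D2, a nuclear receptor that represses clock genes, fell by 0.81. It was the 1 fallen gene of 11 circadian genes tested, against 0.517% of all genes, and none rose. SEMA3C, DEPDC1, DLEU2, FPGT and TBC1D30 failed the threshold without any of the 4 arrays.

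Of the genes of G2 and mitosis all 57 with a probe set were tested, 4 fell, against 0.517% of all genes, and none rose. The median was -0.21, and 51 lay below 0, against 50.7% of all genes. CENPE, a kinetochore motor, read 8.87 and 8.92 in scramble and 7.99 and 8.40 in siRRM2. DEPDC1, a mitotic gene, read 9.89 and 9.74 in scramble and 8.75 and 9.20 in siRRM2. CDC20, the activator of the anaphase-promoting complex, read 10.83 and 10.93 in scramble and 10.19 and 10.35 in siRRM2. In all 3 siRRM2 array 1 was the lowest. PSRC1, a spindle protein, fell by 0.44, and CCNB1, cyclin B1, read 11.47 and 11.60 in scramble and 10.85 and 11.14 in siRRM2 without passing (limma adjusted p = 0.0609). MKI67, the Ki-67 proliferation antigen, read 9.58 and 9.48 in scramble and 9.67 and 9.71 in siRRM2, a log2 difference of 0.16 with an interval from -0.05 to 0.36. No gene of the list fell once any of the 4 arrays was left out.

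Promoters of mitotic genes often hold a cell cycle homology region, searched as TTTGAA, downstream of CCAAT boxes. On either strand 26 of the 48 list promoters in the table held TTTGAA and 35 held CCAAT, against 13.6% and 33.1% of all promoters. Among promoters of tested genes the shares were 8.13% and 36.3%. Of the fallen genes CDC20 and DEPDC1 held both, PSRC1 held CCAAT and CENPE neither. The 3 stretches are printed because they carry the motifs, in capitals, of 3 of the 4 fallen genes, at chr1:43358788-43358945 on the plus strand, chr1:68497089-68497149 on the minus strand and chr1:109283200-109283234 on the minus strand.
CDC20: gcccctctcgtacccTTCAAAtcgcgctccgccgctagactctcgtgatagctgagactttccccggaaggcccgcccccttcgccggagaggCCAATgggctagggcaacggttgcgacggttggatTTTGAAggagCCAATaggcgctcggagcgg
DEPDC1: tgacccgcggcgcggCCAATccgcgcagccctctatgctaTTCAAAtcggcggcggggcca
PSRC1: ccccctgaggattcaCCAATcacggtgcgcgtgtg
Each match gives the letters in the window, with no measure of a bound factor.

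Genes of DNA synthesis itself stayed near 0. In the replication list 46 of 46 genes were tested and limma called 0, with 3 at an unadjusted p under 0.05 and a median of 0.06. PCNA, the sliding clamp and also a p53 target, read 11.23 and 11.15 in scramble and 11.51 and 11.55 in siRRM2, a log2 difference of 0.34 with an interval from 0.13 to 0.55 (limma adjusted p = 0.0952). The PCNA arrays were apart without reaching the threshold. The 25 G1/S regulators tested had 0 called by limma and 7 at an unadjusted p under 0.05, with a median of 0.03. CCNE2, cyclin E2, read 8.92 and 8.91 in scramble and 9.32 and 9.55 in siRRM2 (limma adjusted p = 0.0652). The 37 checkpoint and repair genes tested had 0 called by limma and 7 at an unadjusted p under 0.05. Over all genes 20.4% had such an unadjusted p.

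In nucleotide supply, the pathway around the target, 1 of 28 genes tested rose and only RRM2 fell (median -0.02). Over all genes 2.00% rose and 0.517% fell. The riser was TYMP, thymidine phosphorylase, which breaks thymidine down, at 8.08 and 8.07 in scramble and 8.70 and 8.68 in siRRM2 (log2 difference 0.62, SE 0.08, limma adjusted p = 0.0197). TYMS, thymidylate synthase, and TK1, thymidine kinase, gave 0.28 and 0.39 and did not pass. Among the histones 17 of 26 with a probe set were tested, and 1 rose and 1 fell, beside the same shares over all genes. H2BC5, a core histone H2B, read 7.69 and 7.39 in scramble and 8.43 and 8.31 in siRRM2, and rose. H1-3, a linker histone, read 7.64 and 7.83 in scramble and 6.92 and 7.11 in siRRM2, and fell. No histone passed when any of the 4 arrays was left out.

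Of 31 lysosomal genes tested 3 rose and 1, GALC, fell (median 0.28), against 2.00% and 0.517% of all genes, and 27 lay above 0, against 49.3%. CTSA and CTSB, cathepsins A and B, read 10.19 and 10.20, and 11.62 and 11.76, in scramble. In siRRM2 CTSA read 10.97 and 10.84 and CTSB 12.28 and 12.40. PSAP, the precursor of the saposins that activate sphingolipid hydrolases, rose by 0.64. The siRRM2 arrays of these 3 were above both scramble arrays, as in every risen gene. Their calls did not hold once an array of the 4 was left out.

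Most other programs showed few or no calls, to be read beside 2.00% risen and 0.517% fallen among all genes. Over all genes 20.4% had an unadjusted p under 0.05 and 50.7% lay below 0. The ER chaperone and unfolded protein list had 1 fallen gene of 28, SEC24D, a COPII coat protein, at -0.66. The 27 MYC and nucleolar targets had 0 called by limma, 7 at an unadjusted p under 0.05 and 23 below 0 (median -0.15), and MYC itself gave 0.25 with an interval from -0.13 to 0.63. The 27 ATF4 targets, the 22 cholesterol and lipid genes and the 37 genes of glycolysis and oxidative phosphorylation had 0 called by limma, with 5, 8 and 4 at an unadjusted p under 0.05. In the list of immediate early and heat shock genes 1 of 25 rose, IER5, at 0.46. Of the genes of plasma cell and myeloma identity 1 of 26 rose, MAF, a myeloma transcription factor, at 0.58 (10.33 and 10.28 in scramble, 10.82 and 10.94 in siRRM2). MHC genes had 1 riser of 17, TAP1, and the 12 reference genes had 0 called by limma with 2 at an unadjusted p under 0.05.

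Knockdown of RRM2 was then set against knockdown of RRM1, without the scramble arrays entering the difference. Against scramble, RRM1 differed by -2.63 in siRRM1 and RRM2 by -1.79 in siRRM2, each on its brightest probe set. On the mean of its probe sets RRM2 differed by -2.24, so the depth read for it depends on the probe set. The part of any unequal depth in the differences below was not tested. At a limma adjusted p under 0.05, 13 of 7936 genes differed between siRRM2 and siRRM1 (0.164% of genes tested). Lower in siRRM2 than in siRRM1 were GDF15, RRM2, LAPTM5, PLK2, PMAIP1, RPGRIP1L, GPR35, TNFSF9, PRSS23 and C14orf132. Higher in siRRM2 were PSRC1, LAMP2 and RRM1. GDF15 read 5.90 and 6.31 in siRRM2 and 8.93 and 9.40 in siRRM1, a log2 difference of -3.06 (SE 0.19, limma adjusted p = 0.00258). Its 2 siRRM2 arrays lay between the scramble and the siRRM1 arrays. PLK2 read 6.61 and 6.68 in siRRM2 against 7.88 and 7.91 in siRRM1, and PMAIP1 differed by -1.06. LAMP2, a lysosomal membrane protein, read 9.14 and 9.28 in siRRM2 and 7.98 and 7.81 in siRRM1, beside 9.29 and 9.30 in scramble. GDF15, PLK2, LAMP2, RPGRIP1L, GPR35, PRSS23 and C14orf132 were named after their values were seen. The 13 became 4 and 2 without siRRM1 array 1 and array 2, and 3 and 6 without siRRM2 array 1 and array 2.

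None of the interferon genes differed between siRRM2 and siRRM1 by limma, and only 0.164% of all genes did, so this says little about the list. Of the 34 tested, 18 read higher in siRRM2, and the matching share over all genes was not taken. IRF7 read 7.50 and 7.46 in siRRM2 and 6.89 and 6.91 in siRRM1, a log2 difference of 0.58 (SE 0.09, limma adjusted p = 0.0656), and IFI27 differed by 0.57 (limma adjusted p = 0.113). In the other direction ISG15 differed by -0.11, OAS1 by -0.12 and TAP1 by -0.20. CDKN1A, FAS, GZMB and IL10 were higher in siRRM1 than in siRRM2 on the means, and none of these differences had a limma adjusted p under 0.05.

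**Figure D4:**
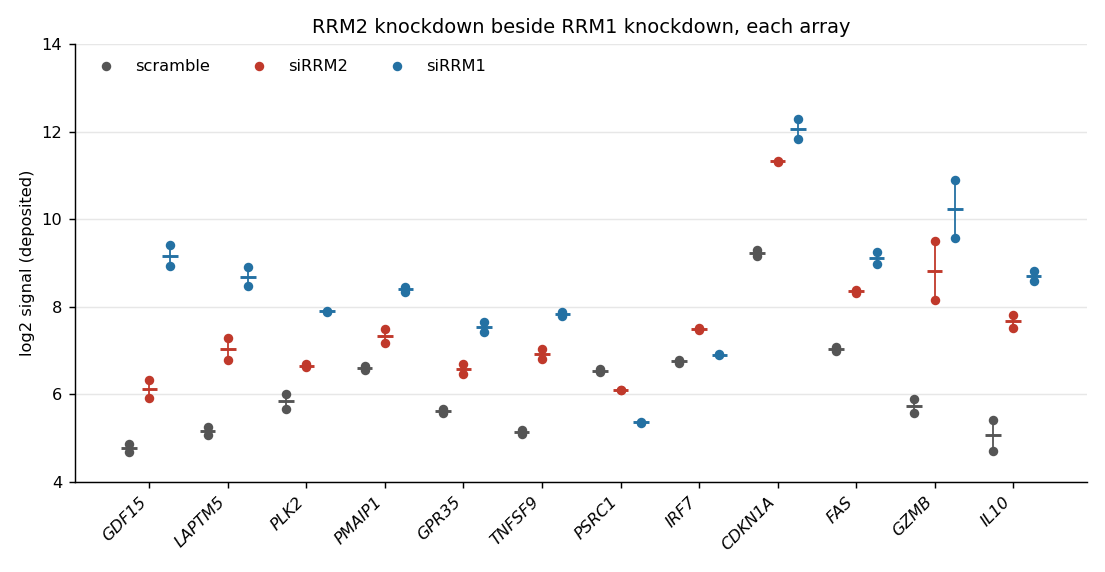
Deposited log2 signal on each array for scramble, siRRM2 and siRRM1, with a bar at each group mean. GDF15 lies at 5.90 and 6.31 in siRRM2 and at 8.93 and 9.40 in siRRM1, and IRF7 lies above the other groups in siRRM2 at 7.50 and 7.46.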

How the data were processed

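The deposited series table held log2 signal per probe set, already normalized by the authors; the normalization and summary method are not given in the sources used here. Of 22277 probe sets, 19070 had 1 gene symbol in the platform annotation, 1043 several and 2164 none, and each of 11963 genes was read from its brightest single-symbol probe set (mean over 6 arrays). Genes with a mean under the 40th percentile, log2 5.44, were left out, which kept 7936. limma 3.58.1 in R 4.3.3 fitted all 6 arrays with 3 group means, and p-values were two-sided and adjusted by Benjamini-Hochberg over the 7936 genes at 0.05. The script was tested on simulated data. Intervals cover 95%. With 2 arrays a group, their number limits the precision. The members, lists and tests were chosen with earlier results of these data known. Named genes were RRM2, RRM1, CDKN1A, MDM2, MYC and MKI67, the 10 largest rises and falls with no overlap, and up to 3 risen and 3 fallen genes of each list by adjusted p, or the 2 smallest where none passed. Every other gene named was chosen after its values were seen. Alternatives were fits on 4 arrays, no filter, mean probe sets, an intensity trend, centring, quantile normalization, a replicate block and each array left out. Fitting every probe set separately was added after seeing the data. Promoter sequences are from RefSeq (GRCh38.p14). Some genes were not analysed here.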

Additional observations from a re-analysis of the deposited data

Results flagged for a closer look

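For 6 named genes the effects of siRRM2 and siRRM1 differed by a direct limma test of siRRM2 minus siRRM1. The targeted subunits differed, RRM2 by -2.03 and RRM1 by 2.79 on the log2 scale. LAPTM5, found in lysosomal membranes of haematopoietic cells, differed by -1.66, TNFSF9, the 4-1BB ligand, by -0.91, and PMAIP1, which encodes NOXA, by -1.06, each with the higher level in siRRM1. PSRC1, a spindle protein, differed by 0.74, with the higher level in siRRM2. Groups of 2 arrays are too small for a test of single outlying arrays.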

How the results depend on the processing

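The 200 called genes (159 higher, 41 lower) ranged from 13 to 203 with single arrays left out (10 to 157 higher, 2 to 46 lower). They were 206 on the 4 arrays alone, 171 without the filter, 219 on mean probe sets, 177 after centring (130 higher, 47 lower), 210 after quantile normalization and 151 probe sets when every probe set was fitted. They became 336 with an intensity trend (255 higher, 81 lower) and 622 with a replicate block (427 higher, 195 lower); the cause was not tested. Genes past 2-fold, 30, ranged from 13 to 35 with arrays left out. The 13 genes that differed between siRRM2 and siRRM1 became 42 with the trend, 153 with the block and 2 to 16 with arrays left out. RRM2 ranged from -2.24 to -1.34 with arrays left out. The replicate block pairs arrays only by number: deviations correlated across genes at 0.363 between scramble and siRRM2, 0.382 between scramble and siRRM1 and 0.210 between siRRM1 and siRRM2, over 2 pairs, and 12 named genes newly passed with it (ATF3, CCNE2, E2F8, FANCI, GUSB, MDM2, NKG7, PMVK, S100A8 and S100A9 higher, HMGCS1 and WRN lower). Near 0 and never passing, HBB, at -0.05 on all arrays, ranged from -0.26 to 0.15 with an array left out (0.06 without scramble array 2 and 0.15 without siRRM2 array 1). KRT8, at -0.03, ranged from -0.10 to 0.034 (0.033 without scramble array 2 and 0.034 without siRRM2 array 2). Of 121 other probe sets of called genes, 110 had the same sign as the one used.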

Other observations

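Of the risen genes 109 were in no list, and of the fallen genes 32. Those named here were chosen after their values were seen. S100 proteins, small calcium-binding proteins, were among them: S100A11 read 11.02 and 10.94 in scramble and 12.05 and 11.78 in siRRM2, and S100A4 and S100A6 rose by 0.87 and 0.82. AIM2, a sensor of cytosolic DNA, read 6.74 and 7.21 in scramble and 8.27 and 8.77 in siRRM2, and LY96, the TLR4 partner MD-2, read 5.63 and 5.68 in scramble and 6.76 and 7.37 in siRRM2. The cytidine deaminases APOBEC3C and APOBEC3G rose by 0.73 and 0.60. CLU, the secreted chaperone clusterin, read 7.61 and 7.78 in scramble and 8.70 and 8.68 in siRRM2, and CD9, a tetraspanin, rose by 1.22. AIM2 lost its call without scramble array 1 or siRRM2 array 2, and APOBEC3C and APOBEC3G without any of the 4 arrays.

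Of the fallen genes in no list, IFRD1, a transcriptional regulator, read 10.03 and 9.84 in scramble and 9.16 and 9.26 in siRRM2, and MFN1, a mitochondrial fusion protein, fell by 0.52. Of 3207 probe sets without a single gene symbol, 15 passed when every probe set was fitted.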
